A study of Mus musculus with 9 samples.

Results

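Anterior foregut cells made in culture (AFE) were compared with embryonic stem (ES) cells of the mouse, gene by gene. The comparison used 6 of the 9 arrays of the series, the 3 labelled AFE and the 3 labelled ES, and the other 3, of definitive endoderm (DE), are given only as levels beside a few results. Each array measured total RNA of cells purified by flow cytometry on an Illumina bead array. A gene was described where its probe was above background on at least 3 of the 6 arrays, which held for 9639 of the 16593 genes on the array.

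Per the labels, the AFE cells were of a 129X1/SvJ background and the ES cells, which carried no reporter, of a 129P2/OlaHsd background. The DE cells came from R1 ES cells, a cross of 129X1/SvJ with 129S1/SV-+p+Tyr- cKitlSl-J/+. The protocol names the lines AV3, p2lac40, Sox17GFP and Pax9Venus without saying which array each line gave, and it is worded alike for all samples. ES cells were kept on mouse embryonic fibroblasts with serum and LIF, the cytokine that holds mouse ES cells undifferentiated. For differentiation the fibroblasts were depleted. From day 2, 5 nM of the kinase inhibitor GSKiXV was given with 5 µM of IDE-1, a small-molecule inducer of endoderm, and then IDE-1 alone. On day 6 cells were replated on a coating from 804G-conditioned medium. They were then given A83-01 at 500 nM, which blocks receptors for activin, Nodal and TGF-beta, together with LDN193189 at 100 nM, which blocks those for BMP. Y-27632, an inhibitor of ROCK kinase, was present at each plating. The sort gate and the day of collection are not given in the sources used here, and the replicates are not said to be separate cultures, so that a p-value here weighs differences against an array-to-array spread that could be technical. Strain, line, sort and cell type cannot be told apart in this design.

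ES cells are held in a self-renewing state by a network of transcription factors around Pou5f1, Nanog, Esrrb and the Klf factors, fed by LIF and its mediator Stat3. Definitive endoderm forms under Nodal signalling and expresses Foxa2, Sox17 and Cxcr4. Its front end, the anterior foregut, gives rise to the pharyngeal pouches, thyroid, trachea, lungs and oesophagus, and is known for Foxa factors, Sox2, Isl1, Pax1, Pax9 and the ligand Shh.

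Levels are log2 of background-corrected, quantile-normalized intensity, on which the lowest level detected on an array lay between 5.02 and 5.42, and undetected probes read lower. A difference is the AFE mean minus the ES mean on that scale, over 3 arrays each, with its standard error (SE), and every adjusted p is from limma with the Benjamini-Hochberg method over all 9639 genes. A gene is said to have risen or fallen where its adjusted p was under 0.05. Where a gene was above background on none of the 3 arrays of its lower group, the fold is a bound, written "at least", against the lowest level detected on each of those arrays. In cells measured in bulk, fewer cells of a type and less RNA per cell cannot be told apart.

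Nearly as many genes differed as did not. Of the 9639 genes, 4636 were called (48.1%), of which 2495 rose (25.9%) and 2141 fell (22.2%) in AFE. At least 2-fold changes were called for 1522 risen genes (15.8%) and 1331 fallen ones (13.8%). The larger the change, the more of it was loss, since 389 genes rose and 475 fell at least 4-fold, 42 rose and 112 fell at least 16-fold, and 15 rose and 48 fell at least 32-fold. The AFE and ES arrays did not overlap for 5735 genes (59.5%), with all AFE arrays above for 32% and all below for 27.5%. The median size of a difference, in either direction, was 0.61 on the log2 scale and the median SE 0.22. Of the 5003 genes not called, 3645 had a 95% interval that lay within 2-fold in both directions, and for the other 1358 the interval reached past 2-fold.

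**Figure D1:**
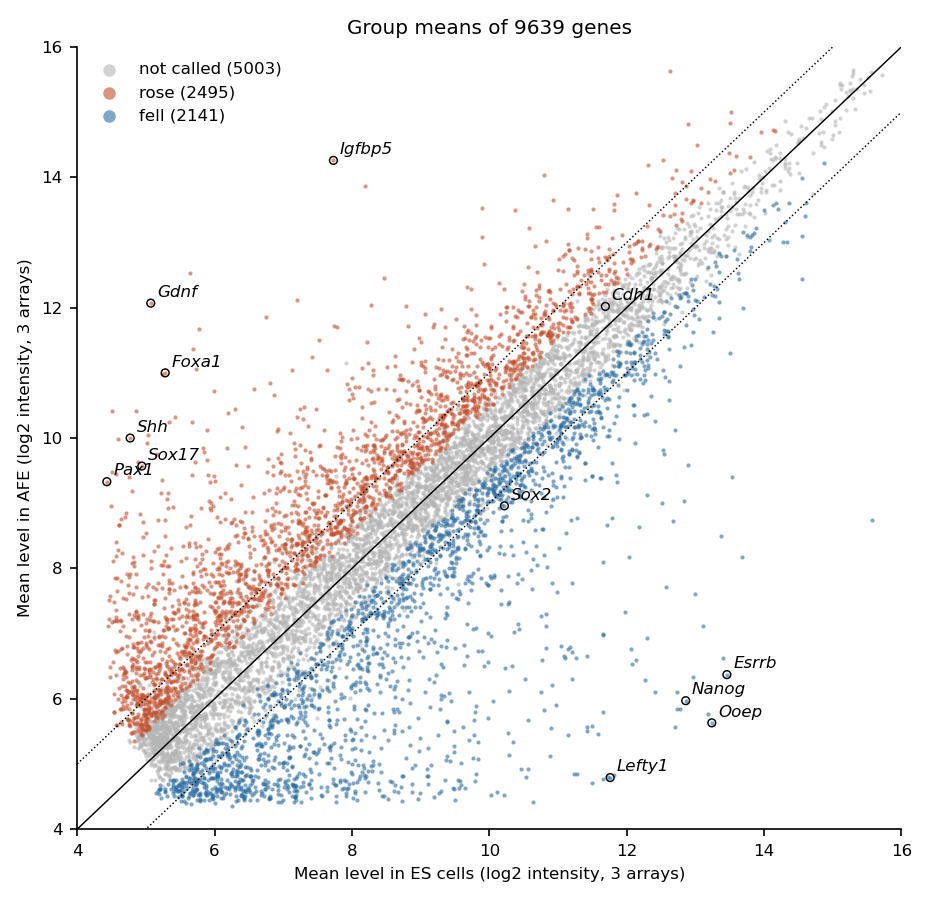
Mean log2 level of each of the 9639 genes on the 3 AFE arrays (vertical axis) against the 3 ES arrays (horizontal axis), with genes that rose, fell or were not called in different colours. The solid line marks equal levels and the dotted lines 2-fold differences. The lower right corner, with Esrrb, Nanog, Ooep and Lefty1 at levels above 11 in ES, holds the largest falls, and 112 genes fell at least 16-fold against 42 that rose as much.

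The arrays of a group were not equally alike. Across genes, AFE 1 and AFE 2 correlated at 0.987 and each with AFE 3 at 0.962 and 0.963, and ES 1 and ES 2 correlated at 0.994 and each with ES 3 at 0.976 and 0.978, against 0.82 to 0.86 between the groups. The first principal component, which separates AFE from ES, held 82.2% of the variance, the second, 8.8%, set AFE 3 at -38.7 against 22.3 and 20.2 for the other AFE arrays, and the third, 5.4%, set ES 3 at -31.4 against 16.3 and 15.1. ES 3 was the only one of these arrays on a second slide, and had a median intensity of 93.9 against 115 to 136 for the other 5. Detected probes ran from 12628 to 14352. Without AFE 3, 2591 genes rose and 2217 fell, without ES 3 2324 and 2084, and without both 2935 and 2615.

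The arrays stood apart in the following lists. On AFE 3, immediate early genes read a median of 0.93 above the mean of the other AFE arrays and were highest in 20 of 22, and actin and contractility genes read 0.88 above and were highest in 21 of 24. There, genes of DNA replication read 0.71 below and were highest in 0 of 37, with ribosome biogenesis 0.76 and cholesterol synthesis 0.76 below. On AFE 2, naive pluripotency factors read a median of 0.90 above the other AFE arrays and were highest in 18 of 24, and one-carbon genes read 0.62 above and were highest in 19 of 24. For the pluripotency factors this excess amounted to a median of 1.32% of the ES level, with quartiles of 0.414% and 3.86%. On ES 3, fibroblast matrix genes read 1.20 above the other ES arrays and were highest in 22 of 24. The part that these gaps play in the differences below was not tested beyond leaving the arrays out.

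**Figure D2:**
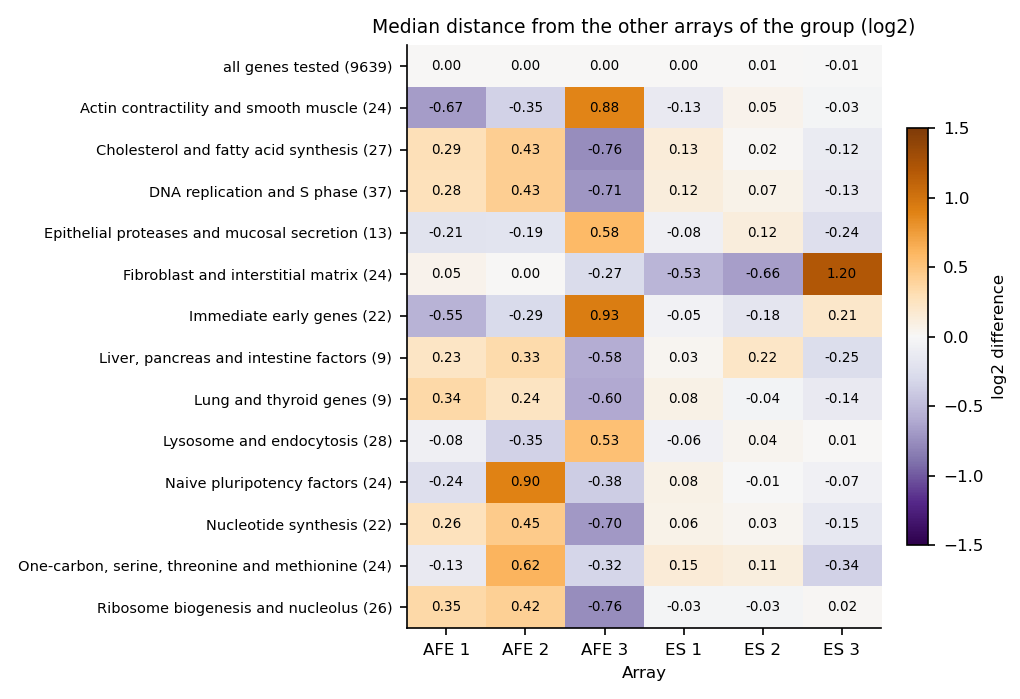
Median gap, on the log2 scale, between 1 array and the mean of the other arrays of its group. Shown are all genes tested and only those gene lists with at least 8 tested members that had a large gap on some array. AFE 3 lies high in immediate early and actin genes and low in replication, ribosome biogenesis and cholesterol genes, AFE 2 lies high in pluripotency factors and ES 3 in fibroblast genes.

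The labels were checked against marker genes. The 4 ES markers Pou5f1, Nanog, Esrrb and Zfp42 summed to 34738, 30184 and 33539 in normalized intensity on ES 1 to 3, and to 112, 717 and 118 on AFE 1 to 3. Of the 8 foregut markers, Foxa2, Isl1, Shh and Pax1 rose. Sox2, which ES cells use as well, read 9.62, 8.97 and 8.29 in AFE and 10.30, 10.24 and 10.11 in ES, and fell by 1.26 ± 0.31 (adjusted p = 0.0115). Pax9, the gene behind a reporter line of the protocol, read 5.58, 5.27 and 6.47 in AFE and 4.45, 4.6 and 4.46 in ES, was above background on 2 of the 6 arrays and so was not tested. Cdh1 (E-cadherin) was not called and lay between 11.63 and 12.14 on all 6 arrays. Epcam has no probe.

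Some markers of other cells were at background and others were not. Alb (liver), Cdh5 and Ptprc (endothelium and blood), Pax6 and Sox1 (neural), and Mesp1, Nkx2-5 and Foxf1 (mesoderm and heart) were above background on too few arrays to be tested. Afp (liver) was not tested either, but was above background on 2 AFE arrays and read 5.31, 6.73 and 4.84 in AFE. Kdr (endothelium) and Tbx6 (mesoderm) were above background on all 3 AFE and all 3 ES arrays. In AFE they read 5.75, 5.98 and 6.15, and 5.80, 5.33 and 6.63. In ES they read 5.34, 5.52 and 5.11, and 5.42, 5.22 and 5.32. Hnf4a, a liver and gut factor, read 6.69, 6.74 and 6.14 in AFE and 6.01, 6.39 and 5.58 in ES and was not called, but was without AFE 3. The 4 liver and gut markers summed to 205 to 738 on the AFE arrays and 96 to 221 on the ES arrays, most of it Cdx2 and Hnf4a. The 4 mesoderm and heart markers on the array summed to 65 to 120 and 55 to 75. The 5 endothelial and blood markers summed to 76 to 93 on the AFE arrays and 213 to 354 on the ES arrays. Most of the ES sum came from Pecam1, at 7.86, 7.99 and 7.4 on ES 1 to 3 and above background on no AFE array. Emcn, of the same group, was above background on 3 ES arrays and 1 AFE array. The 4 neural markers summed to 35 to 48 on the AFE arrays and 2216 to 2670 on the ES arrays, the latter almost all from Stmn2. Of the wider list of neural and neural crest genes 10 were tested, and 8 fell and 2 rose, with 0 rises without ES 1 or ES 2. The 7 markers of feeder fibroblasts summed to 1049, 691 and 188 on AFE 1 to 3. On ES 1 to 3 they summed to 3610, 3372 and 6678, most of it from Thy1, at 11.34, 11.20 and 11.95. Thy1, Col1a1 and Twist2 were higher on every ES array than on any AFE array. Col1a2, Col3a1 and Pdgfrb overlapped between the groups, and Postn was at background. Col3a1 read 9.49 and 8.56 on AFE 1 and AFE 2, above 7.44 and 7.53 on ES 1 and ES 2. The part of feeder RNA in the results was not tested.

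The 3 largest rises were of Gdnf, Capn6 and Igfbp5. Gdnf encodes a neurotrophic ligand of the Ret receptor. Its level was 12, 12.03 and 12.18 on AFE 1 to 3 and 4.88, 4.87 and 5.46 on ES 1 to 3, where 1 of 3 arrays was above background. Its difference of 7 ± 0.21 (adjusted p = 1.15e-06) was the largest rise of all genes, and the groups lay far apart. Capn6, an X-linked calpain that lacks protease activity, read 12.37, 11.97 and 13.28 against 5.10, 5.27 and 6.54, a difference of 6.90 ± 0.45 (adjusted p = 1.48e-05). Igfbp5, which binds insulin-like growth factors, reached 14.56, 14.09 and 14.14 in AFE, and in ES it was uneven at 8.29, 8.52 and 6.39, with ES 3 lowest. Its difference of 6.53 ± 0.51 (adjusted p = 3.67e-05) became 5.85 without ES 3.

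Behind these came Clic6, an intracellular chloride channel protein (5.91 ± 0.23), Car14, a membrane carbonic anhydrase (5.75 ± 0.27), Foxa1, a forkhead pioneer factor of endoderm (5.72 ± 0.22), Isl1, a LIM homeodomain factor of the pharynx (5.69 ± 0.23), and Cldn11, a claudin of tight junctions (5.57 ± 0.30). The carboxylesterase gene Ces1d was above background on no ES array and was at least 40.2-fold higher in AFE (adjusted p = 3.67e-05), and Ttr, which carries thyroid hormone and retinol-binding protein, at least 29.8-fold (adjusted p = 3.66e-06). Tspan12, a tetraspanin, Shh, the homeobox gene Irx3 and the chemokine receptor gene Cxcr4 rose by 5.33, 5.23, 5.11 and 5.00. These genes were picked among those whose arrays did not overlap between the groups, as held for 59.5% of all genes, so their lack of overlap adds no result.

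Emb, which encodes the membrane glycoprotein embigin, was uneven among the ES arrays. It read 13.74, 13.61 and 14.24 in AFE, 5.91 and 6.14 on ES 1 and ES 2, and 12.53 on ES 3. Its difference of 5.67 ± 1.53 (adjusted p = 0.016) rests on the ES array taken, being 7.84 without ES 3, and the adjusted p was 0.0568 without ES 1 and 0.0572 without ES 2.

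The largest falls included regulators of the ES state and Ooep. Ooep, a maternal-effect gene of the egg, read 13.22, 13.53 and 12.99 in ES and 4.62, 7.75 and 4.53 in AFE, a difference of -7.61 ± 0.76 (adjusted p = 0.000125). AFE 2 was the only AFE array on which it was above background. Klf2, a Krueppel-like factor, read 12.91, 12.67 and 12.53 in ES and 5.22, 6.90 and 4.57 in AFE (-7.14 ± 0.52, adjusted p = 2.43e-05). Esrrb, an orphan nuclear receptor, fell by 7.09 ± 0.44 and Dppa4, a chromatin-bound protein of early embryos, by 7.41 ± 0.76. Tex19.1, which restrains retrotransposons in germ cells, was above background on no AFE array and was at least 89.5-fold lower (adjusted p = 1.15e-06). Lefty1, an inhibitor of Nodal, was at least 86.4-fold lower, and Rbmxl2, of the RNA-binding RBMX family, at least 85-fold lower. Of the 15 largest falls, Lox, a cross-linker of collagen (at least 80.4-fold), and Thy1, a surface glycoprotein (at least 72.2-fold), are also on the fibroblast list, and read 12.52 and 11.95 on ES 3 against 11.15 to 11.34 on ES 1 and ES 2.

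**Figure D3:**
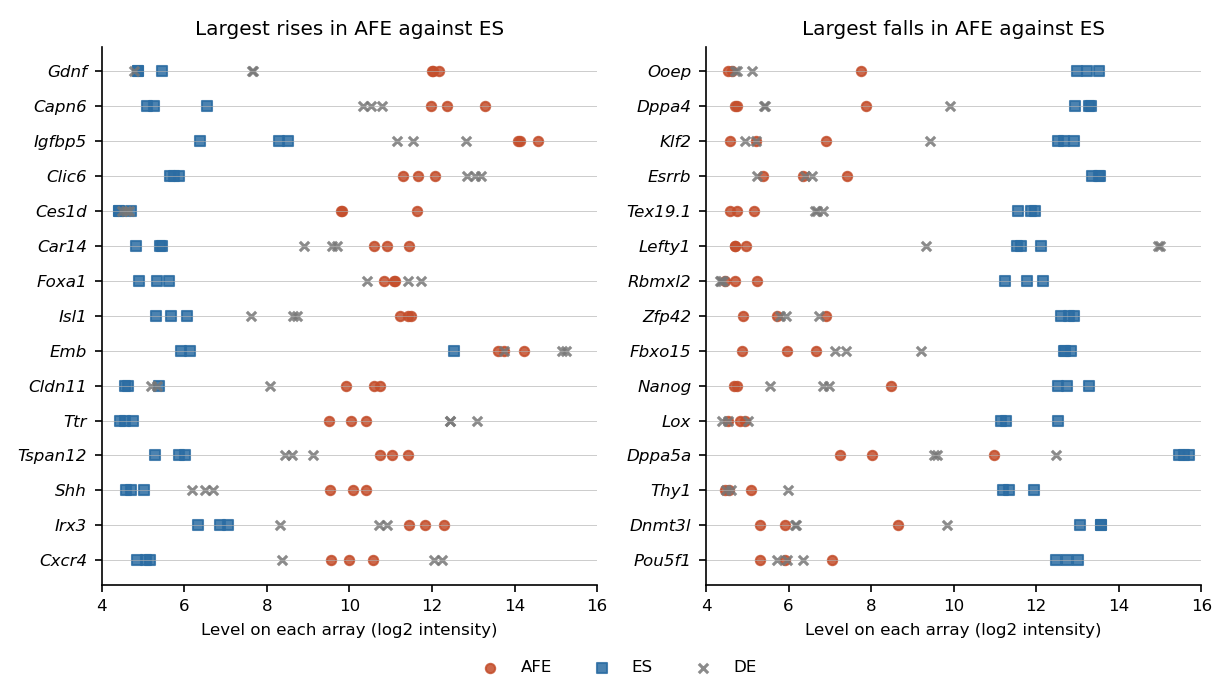
Log2 level on each AFE, ES and DE array of the 15 genes that rose most and the 15 that fell most without overlap between the groups. The AFE and ES points of a gene do not overlap. Emb on ES 3 lies near the AFE points, and Ooep, Dppa4, Nanog, Dppa5a and Dnmt3l lie higher on AFE 2 than on the other AFE arrays.

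The promoters of a gene pair from each end are shown because the sets that rose and fell most differ in CpG content, described further on. The sequences are the 300 bases from 250 before to 50 after the start, 5′ to 3′ on the gene's strand, from the RefSeq annotation of GRCm38.p6, with each CpG in capitals. Where a gene has several starts, the one farthest 5′ was taken. Gdnf lies at chr15:7809798-7810097 on the plus strand and holds 11 CpG and the letters TATAAA. Capn6 lies at chrX:143827363-143827662 on the minus strand and holds 5. Klf2 lies at chr8:72318812-72319111 on the plus strand and holds 32. Tex19.1 lies at chr11:121145893-121146192 on the plus strand and holds 16 CpG and, on the opposite strand, the letters TATAAA.
Gdnf: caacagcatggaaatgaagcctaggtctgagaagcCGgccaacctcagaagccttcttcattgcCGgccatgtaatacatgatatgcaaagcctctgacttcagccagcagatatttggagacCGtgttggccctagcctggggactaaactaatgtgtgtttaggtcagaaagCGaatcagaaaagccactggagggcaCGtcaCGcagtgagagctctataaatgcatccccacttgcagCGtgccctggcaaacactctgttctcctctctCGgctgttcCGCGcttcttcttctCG
Capn6: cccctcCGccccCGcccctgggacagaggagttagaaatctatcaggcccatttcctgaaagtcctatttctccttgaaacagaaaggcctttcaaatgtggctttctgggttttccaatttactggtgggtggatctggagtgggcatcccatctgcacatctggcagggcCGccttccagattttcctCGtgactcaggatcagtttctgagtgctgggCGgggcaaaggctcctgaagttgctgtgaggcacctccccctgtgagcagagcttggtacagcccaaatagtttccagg
Klf2: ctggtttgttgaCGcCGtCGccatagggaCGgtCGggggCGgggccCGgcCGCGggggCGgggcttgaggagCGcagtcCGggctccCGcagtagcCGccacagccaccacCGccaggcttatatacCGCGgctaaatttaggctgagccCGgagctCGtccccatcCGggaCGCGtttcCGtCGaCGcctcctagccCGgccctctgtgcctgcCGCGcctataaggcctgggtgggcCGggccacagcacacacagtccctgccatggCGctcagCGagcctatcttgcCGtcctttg
Tex19.1: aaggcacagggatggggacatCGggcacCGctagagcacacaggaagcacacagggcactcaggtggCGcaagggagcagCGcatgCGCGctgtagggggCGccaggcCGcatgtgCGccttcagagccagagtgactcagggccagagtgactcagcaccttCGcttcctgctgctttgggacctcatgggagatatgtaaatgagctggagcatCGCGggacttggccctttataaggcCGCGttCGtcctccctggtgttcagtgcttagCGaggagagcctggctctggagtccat
The CpG count over that expected from the base composition was 0.55 for Gdnf, 0.23 for Capn6, 0.89 for Klf2 and 0.58 for Tex19.1. Ooep and Esrrb, which fell more than Tex19.1 but are not shown, had 0.6 and 0.27.

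Most tested regulators of the ES state fell. Of 33 listed naive pluripotency factors, 27 are on the array and 24 were tested, and 22 of these fell, all at least 2-fold, with a median difference of -5.62 against 0.07 over all genes tested. Pou5f1, the octamer factor at the centre of the network, read 13.02, 12.74 and 12.48 in ES and 5.30, 7.06 and 5.92 in AFE. It fell by 6.65 ± 0.41 (adjusted p = 1.28e-05). Nanog, a homeobox factor, stood at 12.75, 12.54 and 13.29 in ES, at 8.48 on AFE 2 and at 4.68 and 4.76 on the other AFE arrays, so that the AFE arrays spread over more than 3 units. Its difference was -6.89 ± 0.90 (adjusted p = 0.000512), and AFE 2 was the only AFE array on which it was above background. Zfp42 (Rex1) fell by 6.93, the F-box gene Fbxo15 by 6.90, Dppa5a by 6.82, and Dnmt3l, the cofactor of de novo DNA methylation, by 6.79. Sall4, a zinc finger factor, was not called at -0.38, but was without ES 3. Lin28a, which blocks let-7 processing, was the only member to rise, at 0.56 ± 0.19 (adjusted p = 0.0376), a call that was lost on leaving out any 1 array but AFE 3.

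Several LIF targets and the mediator Stat3 fell. Of 14 listed and tested genes, 8 fell and 2 rose, the kinase gene Jak2 (1.05) and the phosphatase gene Ptpn11 (0.62), each with another probe called otherwise and the call of Ptpn11 lost without AFE 2, ES 1 or ES 2. Socs3, the feedback inhibitor, read 11.59, 11.64 and 11.90 in ES and 8.77, 8.46 and 8.77 in AFE, a fall of 3.05 ± 0.19. Stat3 itself fell by 2.12, and the LIF targets Gbx2, Klf4, Junb and Bcl3 by 5.54, 4.39, 4.27 and 3.32, with Bcl3 above background on no AFE array and at least 7.89-fold lower. The receptor genes Lifr (0.29) and Il6st (0.15) were not called.

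Genes shared by germ cells and cleavage-stage embryos followed. Of 35 listed, 31 are on the array and 18 were tested, 10 of which were detected in 1 group only, and 17 of the 18 fell. Besides Ooep and Tex19.1, Zscan4c, which marks the rare 2-cell-like state of ES cultures, was at least 29.7-fold lower (adjusted p = 2.61e-06) and Tcstv3, of the same state, at least 12.7-fold lower. Tdrd12, a Tudor protein of the piRNA pathway, fell by 4.38 ± 0.43 and stayed above background in AFE at 6.18 to 7.76. Ddx4 was not called at -0.08.

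Several endoderm factors rose while some early endoderm genes were lower than in ES cells. Of 26 listed definitive endoderm factors, 18 were tested, and 11 rose and 5 fell, with a median of 1.64. Foxa1 read 10.83, 11.07 and 11.10 in AFE against 5.62, 5.33 and 4.89 in ES. Foxa2, a forkhead factor of the whole endoderm, read 8.03, 7.07 and 6.89 against 4.80, 4.55 and 5.24, a rise of 2.47 ± 0.33 (adjusted p = 0.000528). Sox17 varied among the AFE arrays at 8.60, 9.51 and 10.61, all above 4.75 to 5.13 in ES, and rose by 4.63 ± 0.44 (adjusted p = 9.77e-05). Gata6, a zinc finger factor of endoderm, rose by 2.72 ± 0.32. Against these, Eomes and Mixl1, which act at the primitive streak, fell, neither being above background on any AFE array, Eomes to at least 3.03-fold lower and Mixl1 to at least 2.32-fold. Fgf17 fell by 4.90 and the thyrotropin-releasing hormone gene Trh by 4.89, from levels of 12.99 to 14.12 in ES. Hhex, a homeobox factor of foregut and liver, was lower at -0.78 (adjusted p = 0.0373), and not called on leaving out AFE 2, AFE 3, ES 1 or ES 2.

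Of 38 listed pharyngeal and anterior foregut factors, 33 are on the array and 22 were tested, 5 of them detected in 1 group only. Of the 22, 15 rose, 2 fell and 5 were not called, with a median of 2.03. Isl1 read 11.22, 11.48 and 11.43 in AFE and 5.68, 6.06 and 5.31 in ES. Shh, the hedgehog ligand of the ventral foregut, read 9.53, 10.39 and 10.08 against 4.59, 4.70 and 5.02. Pax1, a paired box factor of the pharyngeal pouches, was above background on no ES array and read 9.64, 9.80 and 8.54 in AFE, at least 18.8-fold higher (adjusted p = 1.51e-05). Its partner in the pouches, Eya1, was at least 4.28-fold higher, and Trp63, the p53 relative of stratified epithelia, at least 4.06-fold. The Iroquois genes Irx3, Irx5, Irx2 and Irx1 all rose, Irx5 by 4.72, Irx2 by 3.00 and Irx1 to at least 5.24-fold. The genes that fell were Sox2 and Tcea3 (-3.54), a transcription elongation factor.

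Over the 22 tested pharyngeal genes AFE 3 was the highest AFE array for 10 and the lowest for 8, with a median gap of 0.10. The following genes were chosen for their spread among the AFE arrays after their values were seen. Nkx2-3, a homeobox factor of pharyngeal endoderm, stood at 12.08, 10.69 and 7.96 on AFE 1 to 3 and at 5.37 to 5.84 in ES. Its rise of 4.58 ± 0.87 (adjusted p = 0.00315) was 5.72 without AFE 3. Vgll2, a cofactor of Tead factors, was likewise highest on AFE 1 and lowest on AFE 3, at 11.29, 8.83 and 7.45, with no ES array above background, at least 17.1-fold higher (adjusted p = 0.00266), though 1 of its other probes was not called. Cldn10 showed that order too, at 11.05, 9.60 and 7.56 against 4.62 to 5.02. Foxe1, a forkhead factor of thyroid and pharynx, read 9.14, 6.5 and 5.42 and was not called (1.91 ± 0.80, adjusted p = 0.0812), while without AFE 3 its difference was 2.71 (adjusted p = 0.0139). Fgf8, a ligand of the pharyngeal arches, read 10.59, 10.29 and 7.74 in AFE and 9.48, 9.12 and 9.12 in ES. It was not called at 0.30 ± 0.66, and without AFE 3 stood 1.20 higher (adjusted p = 0.00224). AFE 3 was the lowest AFE array for each of these 5 genes.

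Most posterior and organ-specific endoderm genes were too dim to be tested. Of 26 listed liver, pancreas and intestine factors, 9 were tested, and Ttr, Prox1 and the apolipoprotein gene Apoa1 (at least 1.87-fold) rose, Apoa1 not when any 1 ES array was left out, while Cdx1, a caudal factor of the hindgut, fell by 2.46 and Hoxc9, of the posterior axis, was at least 2.04-fold lower. Prox1, a homeobox factor of liver and pancreas, was at least 3.24-fold higher. Without AFE 3 the risen genes of this list numbered 6. Cdx2 read 7.97, 9.15 and 7.18 in AFE and 7.27, 7.27 and 6.03 in ES and was not called (adjusted p = 0.0792), but rose by 1.70 without AFE 3 (adjusted p = 0.021). Of 20 listed lung and thyroid genes, 9 were tested. The ETS factors Etv4 and Etv5, which act downstream of FGF in the lung bud, fell by 3.33 ± 0.72 and 2.17 ± 0.52 and were lowest on AFE 3, at 5.03 and 6.45. Without AFE 3 they fell by 2.34 and 1.46.

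Most tested Nodal targets fell. Of 21 listed, 17 were tested, 7 of them detected in 1 group only, and 13 fell, with a median of -2.20. Lefty1 stood at 11.62, 11.53 and 12.12 in ES and at 4.70, 4.96 and 4.70 in AFE. Lefty2, its neighbour in function, was at least 39.6-fold lower, and Tdgf1 (Cripto), the coreceptor of Nodal, at least 62-fold lower (adjusted p = 1.69e-06). Nodal itself read 9.14, 9.27 and 8.92 in ES and 4.86, 5.46 and 5.44 in AFE, a fall of 3.86 ± 0.22. Foxh1, the factor that binds Smad2, was at least 3.56-fold lower. The activin subunit genes fell as well, Inhba by 4.48 ± 0.53 and Inhbb to at least 17.8-fold lower, as did Gdf3, a ligand of the family, by 5.87 ± 0.30. Ltbp1, which stores latent TGF-beta in the matrix, was the only listed gene to rise (1.66).

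BMP targets moved the other way, with 11 of 14 tested genes up and a median of 1.36. The count of rises was 8 without AFE 2, AFE 3 or ES 2 and 9 without ES 1 or ES 3. The Id genes, inhibitors of basic helix-loop-helix factors, all rose. Id1 read 11.35, 12.12 and 11.68 in AFE and 9.67, 9.52 and 9.69 in ES, a difference of 2.09 ± 0.22 (adjusted p = 0.000185). Id2, Id3 and Id4 rose by 3.24, 1.34 and 3.77. Gata3, a zinc finger factor of the pouches, rose by 3.43 ± 0.20, and the ligand gene Bmp7 by 2.46, while Bmp4 was not called (0.49). Tbx3, a T-box factor that ES cells use for self-renewal, was the 1 listed gene to fall (-2.65).

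Of 19 listed hedgehog genes 17 are on the array, and most, Gli1 and Ptch1 among them, were too dim to be tested. The 5 tested genes, of which 2 were detected in 1 group only, all rose. Beside Shh these were Smo, the signal transducer of the receptor, at 10.46, 10.24 and 10.04 against 8.26, 8.36 and 8.23 (1.96 ± 0.18), Hhip, an inhibitor induced by the pathway (at least 2.96-fold), Disp1, which releases the ligand (1.28), and the effector Gli3 (at least 1.53-fold). Of 16 tested Notch genes 8 rose and 3 fell. The ligand gene Jag1 read 10.37, 10.28 and 10.79 against 7.22, 7.18 and 7.50, a rise of 3.18 ± 0.20 (adjusted p = 1.43e-05). The targets Hey1, Nrarp and Hey2 rose by 2.60, 2.49 and at least 3.86-fold. Hes1, another target, was not called (-0.26), and the genes that fell were Dtx1, Notch4 and Rfng (-2.33, -1.20 and -1.06), the last not without ES 1.

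Wnt receptors and ligands were called in both directions. Of 27 Wnt and Frizzled genes on the array 17 were tested, and 8 rose and 6 fell. The receptors Fzd2, Fzd1 and Fzd6 rose by 4.19 ± 0.31, 3.61 ± 0.22 and 1.72 ± 0.19, and the ligand gene Wnt6 by 3.77 ± 0.38. In contrast, Wnt8a was at least 4.96-fold lower and Wnt3a differed by -1.56. Among 18 tested targets and inhibitors, 7 rose and 3 fell, 1 without ES 1. Frzb, a secreted Wnt antagonist, was at least 13.5-fold higher (adjusted p = 1.28e-05), and Sp5, a direct target, read 13.23, 12.48 and 13.13 against 10.34, 10.41 and 11.23 (2.28 ± 0.30). Axin2 rose by 1.24.

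FGF genes were called in both directions. Of 16 tested genes of the Fgf ligand and receptor family 9 rose and 6 fell. Of 20 tested genes of the pathway, 5 of them detected in 1 group only, 12 fell, 5 were not called and 3 rose. The 3 were the receptors Fgfr1 (0.91), Fgfr2 (1.12) and Fgfr3 (at least 2.33-fold). Fgf4, the autocrine ligand of ES cells, was above background on no AFE array and at least 3.6-fold lower. Fgf5 fell by 2.63 ± 0.39, and Spry4, a feedback inhibitor, by 3.27 ± 0.30. Egr1 read 13.18, 13.16 and 14.25 in ES and 9.67, 7.96 and 10.56 in AFE (-4.13 ± 0.61, adjusted p = 0.000918), with AFE 2 lowest. Dusp6 (0.09) and Spry2 (0.24), also feedback genes, were not called.

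Retinoic acid genes rose in part. Of 15 tested, 8 rose and 2 fell, 1 without ES 1 or ES 2. Rarb, a receptor that is also a target of the pathway, read 9.68, 9.89 and 10.19 against 4.85, 5.35 and 4.87, a rise of 4.90 ± 0.22 (adjusted p = 3.32e-06). Rbp4, the carrier of retinol in blood, rose by 3.76 ± 0.45, and the binding proteins Crabp2 and Crabp1 by 2.07 and 1.47. The receptor gene Rarg fell by 1.88 ± 0.34. Aldh1a2, which makes retinoic acid, was not called (0.00), nor was Cyp26a1, which degrades it (0.54), except without AFE 2.

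Insulin-like growth factor genes and Eph signalling also shifted. Igf2, an imprinted growth factor, read 15.69, 15.64 and 15.56 in AFE and 12.45, 12.51 and 12.94 in ES, a rise of 3.00 ± 0.19. The AFE values lie near the highest on those arrays, and saturation was not tested. The receptors Igf2r and Igf1r rose by 2.17 and 0.96. Igfbp4 rose by 3.24, while Igfbp7 read 12.98, 12.91 and 12.99 in ES and 6.79, 6.07 and 6.18 in AFE and fell by 6.61 ± 0.22 (adjusted p = 1.69e-06), so that binding proteins of the same growth factors moved in opposite directions. Of 12 tested ephrin and Eph genes 9 rose, among them Efna1 (3.34), Efnb2 (3.20) and Efna5 (2.57), and Epha2 fell by 3.76 ± 0.20.

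**Figure D4:**
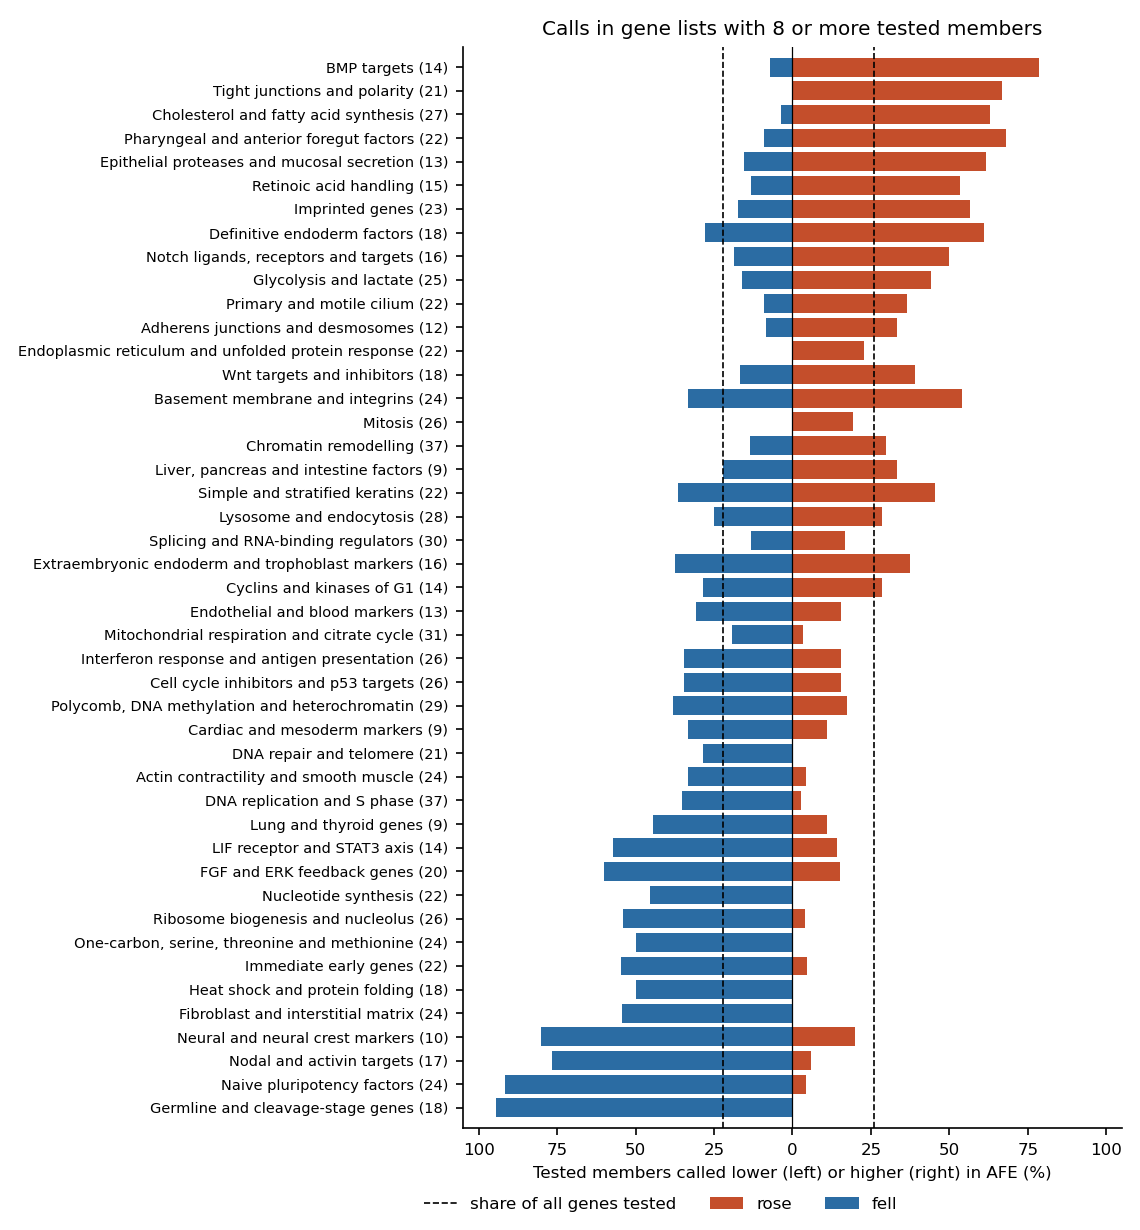
For each list with at least 8 tested members (number in brackets), the share in percent called higher (right) and lower (left) in AFE, with dashed lines at the shares over all tested genes, 25.9% and 22.2%. The highest shares of falls are in the germline (17 of 18), naive pluripotency (22 of 24), neural (8 of 10) and Nodal (13 of 17) lists, and of rises in the BMP target (11 of 14), pharyngeal (15 of 22) and tight junction (14 of 21) lists.

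Tight junction genes were called higher only, and keratins in both directions. Of 31 listed tight junction and polarity genes 21 were tested, and 14 rose and 0 fell, with a median of 1.11. Cldn6, a claudin of embryonic epithelia, read 13.90, 13.46 and 13.60 against 10.95, 11.01 and 10.82 (2.72 ± 0.18). Cldn7 rose by 1.73 ± 0.23 and Prkcz, a polarity kinase, by 2.76, though 1 of its 2 detected probes was not called. Of 12 tested adherens junction and desmosome genes 4 rose and 7 were not called, the rises led by Cdh3 (P-cadherin) at 1.97 ± 0.28, and neither Cdh1 (0.33) nor Cdh2 (-0.48) was called. Esrp1, which sets epithelial splicing, rose by 2.65 ± 0.23, and Esrp2 by 0.98, a call lost without any 1 ES array.

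Of 22 tested genes of the keratin list, 6 of them detected in 1 group only, 10 rose and 8 fell. Krt19, Krt7, Krt18 and Krt8, of simple epithelia, rose by 3.20, 2.83, 2.64 and 1.27, and Krt42 and Krt17 fell, Krt42 to at least 35.3-fold lower (adjusted p = 2.88e-06) and Krt17 by 4.39 ± 0.34. The membrane serine proteases Prss8 and Tmprss2 read above 10 on every AFE array, and Prss8 rose from 6.91, 7.19 and 7.51 to 11.87, 11.85 and 12.63 (4.92 ± 0.27) and Tmprss2 by 4.91 ± 0.34. St14, which activates Prss8, rose by 1.63 ± 0.19. Over the list of proteases and secreted proteins 8 of 13 tested genes rose, a count of 5 without any 1 ES array.

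Basement membrane genes were called in both directions, and interstitial matrix genes, where called, were lower. Of 24 tested basement membrane and integrin genes 13 rose and 8 fell, and 5 fell without ES 1. Nid1, a linker of the basement membrane, fell by 2.05. Col4a2 and Col4a5, of basement membrane collagen, rose by 1.93 ± 0.31 and 1.92 ± 0.19, Lama1 read 10.69, 10.69 and 10.67 against 9.20, 9.33 and 9.14 (1.46 ± 0.16), and Itgb6, an integrin subunit of epithelia, was at least 8.53-fold higher. Col2a1, a fibrillar collagen that embryonic epithelia also make, rose by 4.17 ± 0.31. Of 30 listed fibroblast and interstitial matrix genes 24 were tested, and 13 fell and 0 rose, with a median of -1.19. Fbln2 read 11.81, 11.64 and 12.76 in ES and 6.55, 6.8 and 6.94 in AFE (-5.31 ± 0.30). Col1a1, the main collagen of fibroblasts, read 9.27, 9.04 and 10.58 in ES and 7.71, 7.14 and 4.70 in AFE (-3.11 ± 0.74, adjusted p = 0.00941) and fell by 2.21 without AFE 3. Col3a1 was not called and had AFE 1 and AFE 2, at 9.49 and 8.56, above ES 1 and ES 2, at 7.44 and 7.53, and without AFE 3 and ES 3 it stood 1.54 higher in AFE. The feeder marker sums given above, 188 to 1049 on the AFE arrays and 3372 to 6678 on the ES arrays, share genes such as Thy1 and Col1a1 with this list. They are thus no separate measure of it, and the part of feeder RNA in these falls was not tested.

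Integrin, annexin and S100 genes were called lower more often than higher. Of 17 tested integrin genes, 7 of them detected in 1 group only, 10 fell and 4 rose, and Itga11, a collagen receptor of fibroblasts, was at least 11.8-fold lower. Of 9 annexins 5 fell, among them Anxa1 (-4.76 ± 0.25) and Anxa11 (-3.33 ± 0.25). Of 8 S100 genes 5 fell, with S100a6 at 11.79, 12.18 and 11.92 in ES and 7.91, 6.88 and 7.21 in AFE (-4.64 ± 0.28). Cav1, the caveolar coat protein, read 11.11, 11.22 and 12.65 in ES against 6.37 to 7.42 in AFE (-4.68 ± 0.44).

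Actin and contractility genes depended on AFE 3. Of 24 tested, 8 fell and Myh10 rose (1.40), but 13 fell without AFE 3, and 5 without AFE 2 or without ES 3. Actg2, a smooth muscle actin, was lower on every AFE array than on any ES array, at 11.07, 11.39 and 11.12 in ES against 6.43, 6.52 and 7.17 (-4.49 ± 0.24). Ankrd1, a target of Yap, read 5.78 and 6.91 on AFE 1 and AFE 2, 10.58 on AFE 3 and 9.41 to 9.77 in ES. It was not called (-1.78), and without AFE 3 it differed by -3.20 (adjusted p = 0.000281).

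Replication genes were called lower more often than higher, and most mitotic genes were not called. Of 37 tested genes of S phase, 13 fell and Rfc2 rose (0.83, not without AFE 1, AFE 2 or ES 1), with a median of -0.50, and only 3 fell without ES 1 and 5 without ES 2. Mcm7, a subunit of the replicative helicase, read 9.94, 9.92 and 9.63 in ES and 8.92, 8.68 and 7.86 in AFE (-1.34 ± 0.28, adjusted p = 0.00524). Orc5, of the origin recognition complex, fell by 1.36 ± 0.17. AFE 3 was lowest in 36 of the 37. Of 26 mitotic genes 5 rose, a smaller share than the 25.9% over all genes, and 0 fell. Those that rose include Cdc25c (1.15 ± 0.22) and Ccna2 (1.01 ± 0.21). The count of rises was 2 to 3 on leaving out AFE 1, AFE 2, ES 1 or ES 2, and 2 mitotic genes fell without ES 3. Plk1 read 9.08, 9.07 and 9.02 in AFE, 12.17 and 12.30 on ES 1 and ES 2 and 8.28 on ES 3, and differed by -3.18 without ES 3 (adjusted p = 6.35e-05).

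Of 26 tested cell cycle inhibitors and p53 targets 9 fell, 4 rose and 13 were not called, beside 22.2% fallen and 25.9% risen over all genes. Cdkn1c, an imprinted inhibitor of cyclin-dependent kinases, read 13.88, 13.70 and 14.49 in AFE and 10.89, 11.04 and 10.45 in ES, a rise of 3.23 ± 0.26 (adjusted p = 4.37e-05). Cdkn2b fell by 2.95 ± 0.27. Cyclin D2 (Ccnd2) rose by 1.46 and cyclin E1 (Ccne1) fell by 1.44, a call lost without ES 1 or ES 2.

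Of 29 tested genes of Polycomb, DNA methylation and heterochromatin 11 fell and 5 rose. Cbx7, the main chromobox subunit of ES cells, read 10.05, 10.00 and 9.90 in ES and 7.6, 8.17 and 7.48 in AFE, a fall of 2.23 ± 0.22 (adjusted p = 0.000113). At the same time Cbx2 rose by 2.01 ± 0.26, Cbx8 by 1.94 ± 0.18, Phc2 by 1.95 ± 0.19 and the ring finger subunit Bmi1 by 1.56. The DNA methyltransferase gene Dnmt3b fell by 1.71 ± 0.19. Of 37 tested remodelling genes 11 rose and 5 fell (2 without ES 1, 3 without ES 2), the rises being a share near the 25.9% over all genes. Those that rose include Hmga2, an architectural protein (2.68 ± 0.24), Arid3a (2.64 ± 0.30) and Smarca2, an ATPase of BAF complexes (2.63 ± 0.37).

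Metabolic genes were called in part. Of 27 tested genes of sterol and fatty acid synthesis 17 rose, 9 were not called and Ebp fell (-0.86), with a median of 0.87. Fads2, a desaturase, read 9.12, 9.28 and 8.18 in AFE and 6.71, 6.59 and 6.32 in ES (2.32 ± 0.30), and Scd2 and Scd1 rose by 2.15 and 1.68. The count was 12 without AFE 1, AFE 2 or ES 3 and 22 without AFE 3, on which these genes read lowest in 25 of 27. Of 24 tested genes of one-carbon and amino acid metabolism 12 fell, 12 were not called and 0 rose, and 7 fell without ES 1. Cth, which makes cysteine, read 10.16, 10.20 and 9.59 in ES and 7.27, 7.31 and 6.46 in AFE (-2.97 ± 0.28), and Cbs, the enzyme before it, was at least 2.6-fold lower.

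Of 22 tested nucleotide synthesis genes 10 fell, 12 were not called and 0 rose. AFE 3 was the lowest AFE array for 20 of them, with a median gap of -0.70, and 9 fell without it. Prps1, which makes the ribose phosphate donor, read 13, 12.85 and 12.63 in ES and 9.27, 9.60 and 8.25 in AFE (-3.79 ± 0.33). The purine enzymes Adss, Atic and Gart fell by 2.09, 1.69 and 1.57. Glycolysis genes rose in 11 of 25 and fell in 4. Slc16a3, a lactate exporter, rose by 2.39 ± 0.26, Eno3 by 2.16 and the hexokinase relative Hkdc1 to at least 4.45-fold, while Pfkp and Pgk1 fell by 2.18 and 1.55. Of 31 tested genes of respiration 24 were not called, and Idh2, a mitochondrial dehydrogenase, stood out at 12.83, 12.90 and 13.33 against 10.63, 10.53 and 11.31 (2.19 ± 0.26).

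Of 26 tested ribosome biogenesis genes 14 fell and Utp15 rose (1.01), with a median of -0.73. These genes read a median of 0.76 below the other AFE arrays on AFE 3, and without it 13 fell and 3 rose. Nop58, a core protein of nucleolar particles, read 12.80, 12.71 and 13.02 in ES and 11.46, 11.71 and 11.04 in AFE (-1.44 ± 0.22), and Rrp9 and Rcl1 fell by 1.82 and 1.75. Among 58 cytosolic ribosomal protein genes 48 were not called, with a median of 0.04. Among 68 mitochondrial ones 19 fell, beside 22.2% over all genes, and 3 rose, the latter count being 1 without AFE 1, AFE 2 or any 1 ES array. Of the cytosolic genes 2 rose and 2 fell at least 2-fold. The falls were of Rpl39l and Rpl3l, tissue-restricted paralogs of ribosomal proteins, at least 4.16-fold and 4.22-fold lower. Heat shock genes fell in 9 of 18, with Hspb1 at 12.36, 12.72 and 11.78 in ES and 6.45, 7.66 and 6.67 in AFE (-5.36 ± 0.36).

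Imprinted genes rose in 13 of 23 tested and fell in 4, with a median of 1.58. Besides Igf2 and Cdkn1c, Dlk1, a Notch-related membrane protein, read 10.88, 10.21 and 9.47 against 7.55, 7.40 and 7.11 (2.83 ± 0.34). Peg3, a zinc finger gene, rose by 2.70 ± 0.18, and Asb4 was at least 8.13-fold higher (adjusted p = 1.66e-05). The genes that fell were Dcn (-2.25), which is also a fibroblast gene, Snrpn (-0.94), Impact (-0.93) and Slc22a18 (-0.47), whose call was lost on leaving out any 1 array but ES 3.

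Immediate early genes fell in 12 of 22, with a median of -1.15, and Klf10 rose (0.96), a call lost without AFE 2, AFE 3, ES 2 or ES 3. Fos read 11.86, 11.60 and 13.33 in ES and 5.65, 5.88 and 7.32 in AFE (-5.98 ± 0.55), with ES 3 and AFE 3 the highest of their groups. Fosb was at least 26-fold lower and Junb fell by 4.27 ± 0.37. Interferon and antigen presentation genes fell in 9 of 26 and rose in 4. Irf1 fell by 2.45 and Ifitm3 by 2.16, while H2-Ab1, an MHC class II chain, rose by 2.93 ± 0.38 from 4.95 to 5.29 in ES to 7.67, 7.41 and 8.96, and H2-Oa, of the same class, was at least 6.75-fold higher. The strains compared differ, and probe sequence and strain were not tested against each other.

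Counts over symbol families of regulators stand beside shares of 25.9% risen and 22.2% fallen over all genes. Of 38 Hox genes on the array, 15 were tested, 6 of them detected in 1 group only, and 8 fell and 0 rose, from low ES levels such as 7.88, 8.05 and 7.78 for Hoxc6 (-2.46 ± 0.28). Of 23 tested forkhead genes 8 rose and 6 fell, but 5 rose without AFE 1 and 4 without ES 1 or ES 2. Of 12 Sox genes 5 rose and 3 fell. Of 6 Gata genes on the array 3 were tested and rose, Gata2 (0.80) not without AFE 2, AFE 3, ES 2 or ES 3. Sox21 read 11.83, 10.59 and 12.06 against 7.27, 7.64 and 7.64 (3.98 ± 0.37) and Sox9, of many epithelial buds, was at least 7.04-fold higher. Of 13 Klf genes 8 fell, including Klf5 (-3.51), Klf9 (-3.55) and Klf4 (-4.39). The broad Zfp family rose in 66 and fell in 35 of 201, but its 5 largest changes were falls, of Zfp42, Zfp296 (-5.15), Zfp819 (at least 18.9-fold lower), Zfp985 (-4.91) and Zfp979 (-4.63).

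Of 182 tested solute carriers 46 rose and 45 fell, shares near the 25.9% and 22.2% over all genes. Slc47a1, a proton antiporter for organic cations, was at least 22.2-fold lower and Slc28a1, a nucleoside carrier, fell by 4.27, while Slc22a23 rose by 3.52 ± 0.20. Among glutathione transferases Gstp2 fell from 11.71, 11.74 and 11.29 to 4.97, 6.19 and 5.22 (-6.12 ± 0.32), a sequence close to other Gstp genes, so that the probe may not tell them apart. Of 22 tested genes of the primary and motile cilium 8 rose, 2 fell and 12 were not called. The intraflagellar transport genes Ift122, Ift57 and Ift81 rose by 2.23, 1.90 and 1.34, while Tekt1 and Rfx2, of motile cilia, fell by 2.91 and 2.81.

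Genes detected on all 3 arrays of 1 group and on none of the other numbered 194 in AFE, of which 193 were called, and 499 in ES, of which 450 were called. A gene kept through 1 group only had to differ, so that these counts describe detection and add no test. Besides those above, the AFE genes included Vtn, the adhesion protein vitronectin (at least 20.9-fold), Corin, a membrane protease (at least 20.4-fold), and Ppp2r2b, a phosphatase subunit (at least 14.6-fold). The ES genes included Stmn2, a microtubule regulator of neurons, at 11.38, 11.22 and 11.10 (at least 60.2-fold), Gbp2b, a guanylate-binding protein (at least 37.3-fold), and Tcf15, a factor that primes ES cells (at least 20.1-fold).

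On AFE 3, single genes stood far from the other AFE arrays. Nppb, which encodes a natriuretic peptide, read 9.01 there against 5.06 and 5.17, Actc1, a cardiac actin, 11.79 against 8.03 and 8.43, and Car9, a carbonic anhydrase induced by low oxygen, 9.12 against 5.84 and 5.82, and none of these was called with all arrays. Rasgrf1, an imprinted exchange factor, was called at least 5.58-fold higher, and not on leaving out any 1 ES array. On ES 3, Eif2s3y, a Y-linked initiation factor gene, read 11.18 against 7.68 and 7.88, and Thumpd1, an RNA-binding protein, 11.24 against 6.18 and 6.33. Neither was called, and without ES 3 they stood 3.05 and 4.90 higher in AFE (adjusted p = 0.000266 and 2.81e-05). Gjb2, a connexin gene, read 9.50 on ES 3 against 6.17 and 6.18 and rose by 3.28 without it (adjusted p = 0.000438).

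By chromosome, the X stood highest in its share of rises. Of 317 tested X-linked genes 35.3% rose and 24.3% fell, with a median of 0.18, which lay between 0.066 and 0.177 under other scalings. On the autosomes 20.6% to 28.2% rose, and the medians reached 0.172, on chromosome 9, close to that of the X. Chromosome 7 had the lowest share, 20.6% of 766 genes, with a median of -0.028. Strain and sex of the lines could not be told apart from group here.

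A RefSeq promoter was matched by symbol for 7819 of the 9639 genes (81.1%). The share with a CpG count under 0.3 of that expected was 10.6% over all tested genes, 11.3% over genes that rose at least 2-fold and 20.4% over those that fell at least 2-fold. It was 13.8% for the 29 promoters of genes that rose at least 16-fold and 35.7% for the 84 of genes that fell as much, with 41.6% over all 27025 genes of the promoter table. CpG-rich promoters, above 0.6 of expectation, made up 71.7% of all tested, 67.4% of the risen and 56.7% of the fallen genes, and 55.2% of those that rose and 33.3% of those that fell at least 16-fold. Low CpG content was not limited to lost genes. Over the 141 promoters of genes detected in AFE only, 24.8% were under 0.3 and 45.4% above 0.6. Over the 366 of genes detected in ES only the shares were 34.4% and 37.7%. The letters TATAAA, searched on both strands, were found in 7.7% of all tested promoters, 7.25% of the risen, 11.2% of the fallen, 13.8% of those of genes that rose and 23.8% of those that fell at least 16-fold, and in 14.2% of all promoters of that length. Klf2 above is of the CpG-rich kind and Capn6 of the CpG-poor kind, so that single genes cross this pattern, while Esrrb, at 0.27, follows it. These shares are descriptions and were not tested.

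**Figure D5:**
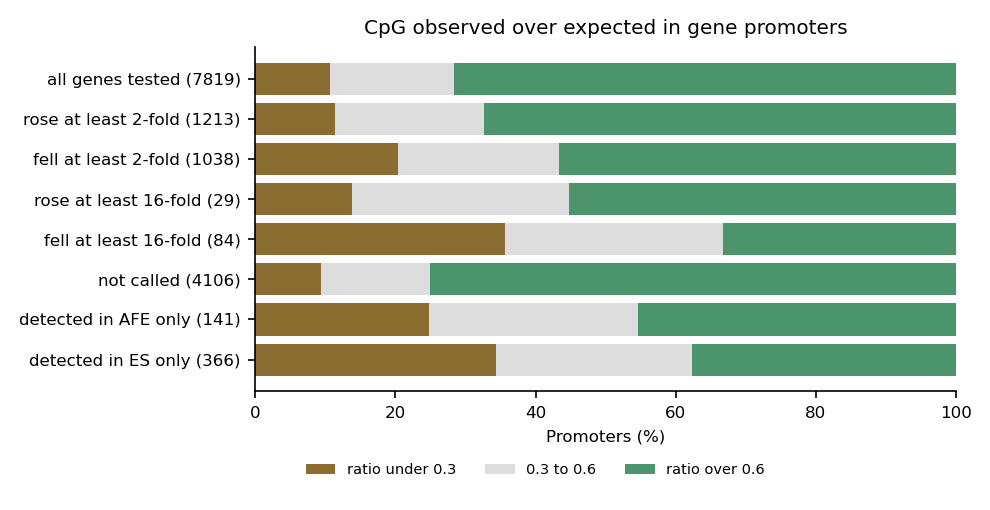
Share of promoters, in percent, by ratio of observed to expected CpG for all tested genes and for genes that rose or fell, with the number of promoters in each set. The share under 0.3 is 10.6% over all tested genes, 35.7% over genes that fell at least 16-fold, 24.8% over genes detected in AFE only and 34.4% over genes detected in ES only.

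Levels on the DE arrays stand beside the AFE levels for a few genes, and share the same normalization. DE 3 stood apart, with the 5 endothelial and blood markers summing to 11567 there against 61 and 48 on DE 1 and DE 2. The part of this in its levels was not tested. Pax1 read 4.58, 4.46 and 4.48 on DE 1 to 3 and Ces1d 4.59, 4.65 and 4.50, at background, where AFE read above 8.5. Gdnf read 7.65, 7.67 and 4.77. Foxa1 was near its AFE level, at 11.41, 11.74 and 10.42, and Cxcr4, at 12.05, 12.25 and 8.37, and Sox17, at 12.46, 12.30 and 11.55, were above theirs except for Cxcr4 on DE 3. Sox2, at 5.00, 4.65 and 4.84, was above background on no DE array.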

How the data were processed

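Total RNA of 9 sorted samples was measured on 1-colour Illumina bead arrays. Per the file headers, the authors deposited, for each array, a non-normalized probe intensity and a detection p-value, from 25697 probes. These intensities were used, with the detection p-value as the measure of background. The authors' normalized table was left out because its columns for ES 2 and ES 3 match other arrays (best match DE 2 and ES 2), while its other 7 columns match their own.

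Intensities of all 9 arrays were background-corrected, quantile-normalized and put on the log2 scale with neqc of limma 3.58.1 in R 4.3.3, with an offset of 16. A probe was kept where its detection p was below 0.05 on no fewer than 3 of the 6 AFE and ES arrays, and the brightest stood for a gene. Of 2568 genes with several detected probes, 989 had 1 called otherwise, 49 of them in the opposite direction. Of 25697 probes, 1719 carry no symbol and were not named. AFE and ES were compared with lmFit and eBayes on their 6 arrays, with Benjamini-Hochberg adjustment and calls at an adjusted p under 0.05. The number of arrays, 3 in each group, limits the precision. Whether background correction, normalization, the filter and the choice of probe recover known differences was not tested. Same-numbered arrays did not deviate together (correlations of 0.084, 0.003 and 0.073), so the numbers were not taken as pairs. Figures were drawn with matplotlib 3.10.9.

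Genes were named by rule: the 15 largest rises and falls of at least 2-fold without overlap, up to 5 members with the largest differences in each list and symbol family, the 10 largest each way among genes measured in 1 group only, and the 10 with the largest gaps of AFE 3 and of ES 3 in each direction. Others, such as Sox2, Id1, Foxe1 or members given because few of a list moved that way, were picked once their values had been seen. The members and lists were chosen with earlier results of these data known. A member kept through 1 group only had to differ, so counts over a list describe it. Alternatives changed the normalization, background correction, filter, probe rule, test and arrays.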

Additional observations from a re-analysis of the deposited data

How the results depend on the processing

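No gene called with all arrays and the settings above was called in the opposite direction under any of the 19 alternatives with 1 value a gene. Taking each probe by itself, 49 of 2568 genes with several detected probes had a probe called the opposite way. Of the 4636 calls, 75.1% to 99.2% were kept, except 43.1% under a test against a fold of 1.5. The stricter filter left 4281 of them tested and kept 4280. The test against a fold called 1084 genes higher and 913 lower and moved 122 of 200 list counts by over 1.5 times. Without background correction 825 genes were higher and 726 lower by at least 2-fold. Median scaling moved the median of all genes from 0.069 to -0.039 and gave 2144 higher and 2469 lower calls, and it moved 20 list counts as far. Leaving out ES 1 moved 46, ES 2 39, both AFE 3 and ES 3 36, and any other 1 array 17 to 24. On leaving out 1 array, 1903 to 2591 genes were higher and 1608 to 2217 lower, and 1423 to 1561 and 1264 to 1369 by at least 2-fold, with the fewest calls without ES 1. The replicate block, a fit with the replicate number as a term, gave 2446 higher and 2133 lower calls, kept 94.1% of the calls and moved 13 list counts. Of 6 genes not called with all arrays, the difference ranged across settings that leave out arrays from -0.88 (without AFE 3) to 1.09 for Nppb, from -1.01 to 0.68 for Csnk1g1, from -0.70 to 0.87 for Dpysl4, from -1.40 to 1.54 for Col3a1, from -0.88 to 0.60 for Abcc5 and from -0.86 to 0.93 for Hprt. Without AFE 3, Csnk1g1 stood at -0.84 and Dpysl4 at 0.81, and without both AFE 3 and ES 3, an alternative chosen after seeing the data, Nppb stood at -0.77. The causes were not tested. Of 486 called genes described by name or by the naming rule, 332 were called the same way in every setting. Genes near background have differences that the background correction sets, and those above it in 1 group only have bounds. The median SE of 0.22 limits what small differences could be called.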
